A study of Jaltomata procumbens and Jaltomata herrerae with 23 samples.

Results

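RNA-seq was used to profile the floral nectaries of a pair of related nightshades, Jaltomata herrerae and Jaltomata procumbens, before, during and after they secrete nectar, with leaves beside them. Of 13167 Arabidopsis loci that remained of the table's 13170 after 3 dominant ones were left out, 36 had a transcript peak at the secretory stage in J. herrerae and no such increase in J. procumbens. These 36 loci were chosen by their values. The secretory mean in J. herrerae had to lie at least 1.5 above both its pre-secretory and its post-secretory mean on the log2 scale, the secretory mean in J. procumbens had to lie less than 0.5 above its pre-secretory mean, and the J. procumbens nectary libraries had to average at least 5 units. The stage levels of the 36 loci in J. herrerae and the pre-secretory and secretory levels in J. procumbens are thus a description with no test. The 36 were what remained of 198 loci with the J. herrerae peak: 132 of those were higher at secretion by 0.5 or more in J. procumbens too, and another 30 missed the floor of 5. The unit is scaled TPM, TPM as deposited (the abundance of transcripts per length, relative to all transcripts) after those 3 loci were removed and each library was brought to the same total of 1000000, so levels can be compared between genes as values per transcript length.

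Pre-secretory nectaries were taken 24 to 48 h before anthesis, secretory ones at full anthesis 3 to 6 h after dawn, post-secretory ones after the petals had dropped, and leaves fully expanded. The 20 libraries used were 3 pre-secretory, 3 secretory and 3 post-secretory nectary libraries and 2 leaf libraries of J. herrerae, and 3, 2 and 2 nectary libraries of those stages and 2 leaf libraries of J. procumbens. All plants came from the same growth facility, the labels name no treatment or mutant, and it is not stated that replicate libraries came from separate plants, so a p-value here reflects library-to-library spread, which may be technical. Nectaries were dissected by hand as whole tissue. In such bulk samples fewer cells of a type and less RNA per cell cannot be told apart.

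Floral nectaries load or make sugars before the flower opens and release them at anthesis. In Arabidopsis and its relatives the transporter SWEET9 exports sucrose from the nectary parenchyma, cell wall invertase splits it, and water follows the sugar. Proline and other amino acids, ions and protective proteins are known components of nectar or of nectary cells in many plants.

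The labels were checked on SWEET9, on CRC, a transcription factor that nectaries need in Arabidopsis, and on RBCS1A, a small subunit of Rubisco. SWEET9 stood at 25234 to 29789 in J. herrerae and at 42056 to 50963 in J. procumbens secretory nectary, and RBCS1A at 96710 to 133116 and 45988 to 57527 in the leaves. Library A of the pre-secretory, post-secretory and leaf groups of J. procumbens (3 libraries) went against its label and was left out: RBCS1A stood at 53620 in pre-secretory A and at 89.7 in leaf A, and SWEET9 at 59102 in post-secretory A. J. procumbens pre-secretory C was kept although its profile over loci correlated better with the secretory group (r = 0.957) than with its own (r = 0.940). Without it 32 loci met the rule, 31 of them among the 36. With all 23 libraries 24 loci met it (17 of the 36), with the deposited TPM not rescaled 20 (19 of the 36), and with rescaling by median ratios 50 (24 of the 36).

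In J. herrerae the 36 loci had secretory means of 3.6 to 15426 scaled TPM, with a median of 83.6, against medians of 16.7 before and 14.5 after secretion. The smaller of the 2 log2 differences, to pre-secretory or post-secretory nectary, ran from 1.51 to 4.26 with a median of 2.07. In 32 of the 36 every secretory library lay above all 6 pre- and post-secretory libraries, as did 8.41% of the 13072 loci tested, but the rule used these values and nothing is read from the count. The exceptions were AT2G32920, AT1G19490, AT5G16480 and AT5G38820. A secretory mean under 10 scaled TPM was seen for 6 members, where single libraries held 2.38 to 9.53. As deposited these were whole numbers of 1 to 4 TPM, so the peaks of these members are steps of few rounding units. Of these 6 members, AT3G05350, AT1G34470 and AT3G28550 were listed at 0 in all pre-secretory, post-secretory and leaf libraries of J. herrerae. A listed 0 may be a small value that was rounded down.

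The pre- and post-secretory levels in J. herrerae were not alike in order: 22 members were higher before secretion than after it, 11 were lower and 3 were level. In leaf all 36 members had a lower J. herrerae mean than in secretory nectary, and in 34 the 3 secretory libraries lay above both leaf libraries (39.7% of all tested loci did so). The rule chose the members for high J. herrerae secretory values, so nothing is read from these leaf counts. In J. procumbens the secretory mean was below the pre-secretory one in 16 members and at or above it in 20, over a range of -4.32 to 0.48 on the log2 scale with a median of 0.04. All loci together had a median secretory minus pre-secretory difference of -0.29 in J. herrerae and -0.12 in J. procumbens.

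**Figure D1:**
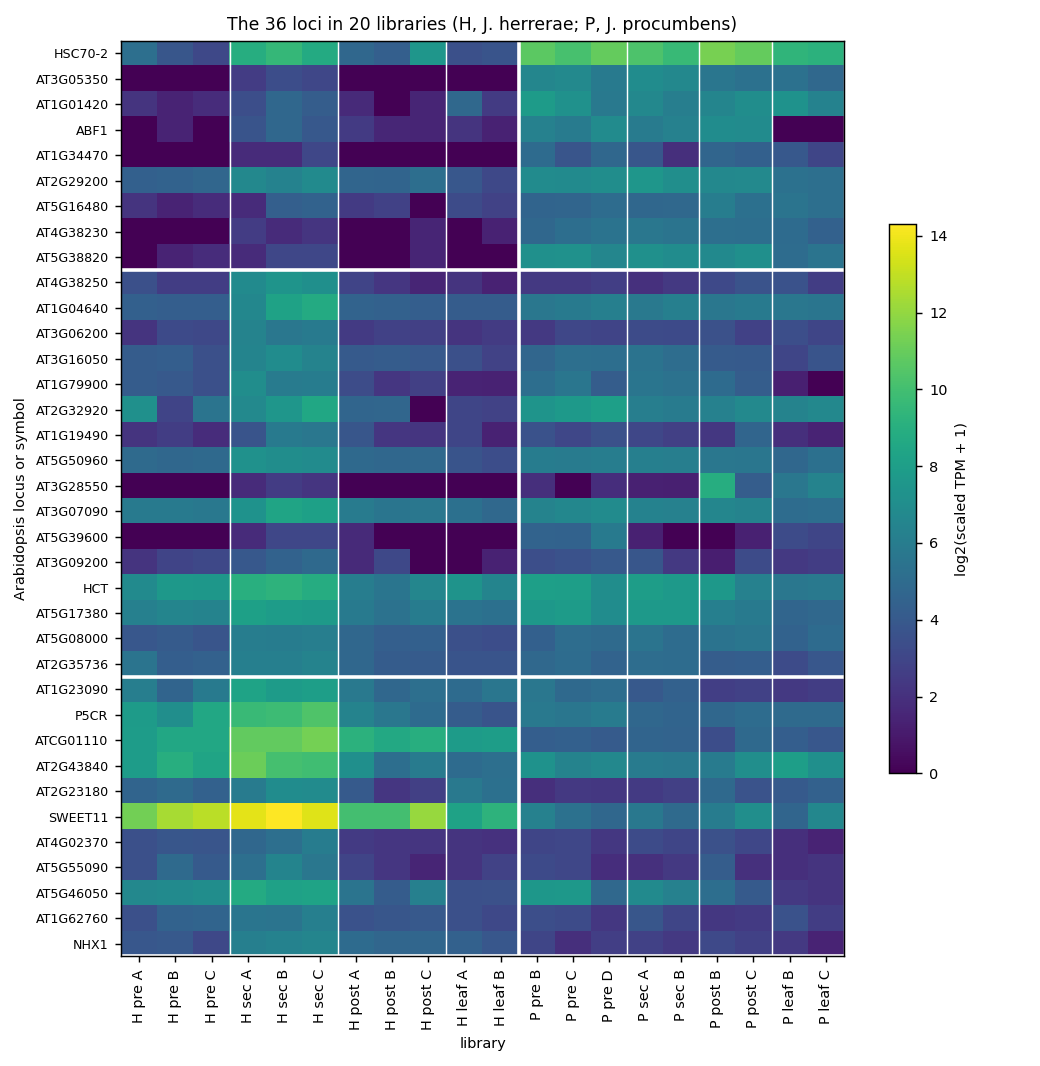
Level of each of the 36 loci (rows) in each of the 20 libraries (columns), as log2(scaled TPM + 1) in colour, with rows grouped from top to bottom by J. procumbens nectaries above the J. herrerae peak (9), between or mixed (16) and at or below the J. herrerae baseline (11). The 3 J. herrerae secretory columns are brighter than the columns beside them in each block, while most J. procumbens nectary columns are brighter than the J. herrerae secretory ones in the top block and darker in the bottom one.

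Markers of other tissues differed between the same groups. The 68 photosynthesis genes of the table summed to 2038 to 3781 scaled TPM in J. herrerae secretory nectary, against 3233 to 25780 before and 30928 to 53520 after secretion and 286053 to 342345 in leaf. GAPA1 and CHLM of that list were at 0 in the secretory libraries, and PSBO2 and PETE1 in every J. herrerae group. The 5 vascular markers summed to 14.3 to 25.2 during secretion and to 38.2 to 47.3 before and 53.7 to 62.6 after it, with XCP2 and SEOA at 0 in the secretory libraries. The 3 carpel and ovule markers summed to 143 to 157 in the secretory libraries, with ANT at 0, and to 166 to 231 before and 204 to 249 after secretion. In J. procumbens nectaries they summed to 11.8 to 61.7. The 13 stomatal and epidermal markers summed to 203 to 476 during secretion, with 7 of them at 0 (1 of these, SDD1, in every J. herrerae group), and to 294 to 353 before and 439 to 599 after it. The 2 petal markers (73.9 to 237 during secretion, 147 to 193 before and 53.7 to 82.6 after it) and the 3 pollen and anther markers (18.0 to 42.9, 10.1 to 41.2 and 1.92 to 11.2) overlapped between the pre-secretory and secretory stage, and the 1 trichome marker stayed at 3.84 or less. In J. procumbens, too, the vascular sum was lower during secretion (2.95 to 9.80) than before (14.3 to 28.0) or after it (20.2 to 32.2). So was the stomatal and epidermal sum there (120 to 128, against 207 to 427 and 176 to 307). The photosynthesis sum was instead higher during secretion (3129) than before it (2345 to 2609) in J. procumbens, and stood at 13436 to 18929 after it. The pollen and anther sum there was highest during secretion (26.5 to 28.0, against 14.7 to 21.4 and 14.8 to 26.0). The part of these differences in the peaks was not tested.

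SWEET11, a plasma membrane sucrose exporter of the family of SWEET9 that in Arabidopsis loads phloem in leaves, was the most abundant member. In J. herrerae it stood at 2484, 5530 and 7375 scaled TPM in the pre-secretory libraries A, B and C, at 13462, 20355 and 12460 in the secretory ones and at 1031, 1038 and 4400 in the post-secretory ones. The secretory libraries lay above all others, 1.69 above pre-secretory and 3.2 above post-secretory nectary on the log2 scale. In J. procumbens SWEET11 stood at 77.3, 40.0 and 26.7 before, 53.0 and 29.4 during and 136 and 64.4 after secretion (post-secretory C and B), with overlapping stages. Every J. herrerae nectary library thus lay above every J. procumbens one for this gene.

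The other SWEET genes of the table, 14 with SWEET11, did not share this pattern under the rule. SWEET9 averaged 12026 ± 3807 before, 28110 ± 2503 during and 1318 ± 485 after secretion in J. herrerae (mean ± SD, n = 3 each), and 21259 ± 16679 (n = 3), 46510 ± 6299 (n = 2) and 3033 ± 2645 (n = 2) in J. procumbens. In J. herrerae secretory nectary SWEET11 was thus nearest to SWEET9 in level among the SWEET genes, while in J. procumbens it averaged 41.2 ± 16.7. SWEET15 had the J. herrerae peak (59.2 ± 8.72, 256 ± 81.8 and 62.6 ± 37.0), but in J. procumbens it was also 1.12 higher during secretion than before it on the log2 scale. SWEET12, the closest Arabidopsis relative of SWEET11, did not pass a group mean of 5.08 anywhere. How reads of near-identical copies were shared among loci is not given in the sources used here, so the split between related loci is uncertain.

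NHX1, a vacuolar antiporter that exchanges sodium or potassium for protons, was the member nearest the floor. It stood at 13.5, 14.9 and 7.73 before, 72.8, 81.0 and 89.8 during and 31.3, 24.9 and 25.7 after secretion in J. herrerae, with no overlap between secretory and other libraries. In J. procumbens it lay between 2.85 and 8.05 in all 7 nectary libraries. Its relative NHX2, another vacuolar antiporter, peaked in J. herrerae as well (11.8 ± 3.12, 64.1 ± 15.0 and 20.8 ± 5.25) and was also higher during secretion in J. procumbens, at 37.8 ± 20.5, 122 ± 18.9 and 64.9 ± 16.3. Hence 1 of these 2 antiporters met the rule. Among the 37 ion transport genes in the table these were the only ones with the J. herrerae peak.

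P5CR, the enzyme of the last step of proline synthesis, stood at 230, 133 and 376 before, 820, 889 and 1337 during and 82.8, 49.9 and 31.2 after secretion in J. herrerae. Secretory libraries were all above the pre-secretory ones, and those above the post-secretory ones. In J. procumbens it lay at 48.5 to 61.4 before, 23.8 and 26.5 during and 26.8 and 31.7 after secretion, so its secretory libraries were the lowest. P5CR was the only gene of the 9 proline genes in the table with the J. herrerae peak. P5CS2, an enzyme of the first step, stood at 214 ± 45.2, 195 ± 6.68 and 146 ± 17.8 across the J. herrerae stages, and P5CDH, of proline breakdown, at 99.5 ± 37.5, 127 ± 16.4 and 74.1 ± 11.2. PRODH2, which starts proline breakdown, stood at 42.9 ± 16.7, 29.2 ± 4.33 and 154 ± 20.1 there and was listed at 0 in every J. procumbens nectary library used. PRODH1, its relative, stood at 223 ± 36 after secretion in J. procumbens against 12.2 ± 6.10 in J. herrerae.

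HCT, an acyltransferase of the monolignol pathway, stood at 115, 201 and 191 before, 531, 610 and 464 during and 67.1, 46.0 and 95.4 after secretion in J. herrerae. Its J. procumbens values of 127 to 274 before, 216 and 253 during and 77.9 and 201 after secretion lay below all J. herrerae secretory libraries and overlapped the pre-secretory ones there, and the J. procumbens stages overlapped each other. LAC11, a laccase that polymerises lignin, was the only other of the 18 phenylpropanoid genes with the J. herrerae peak, at a secretory mean of 3.6 ± 1.17.

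**Figure D2:**
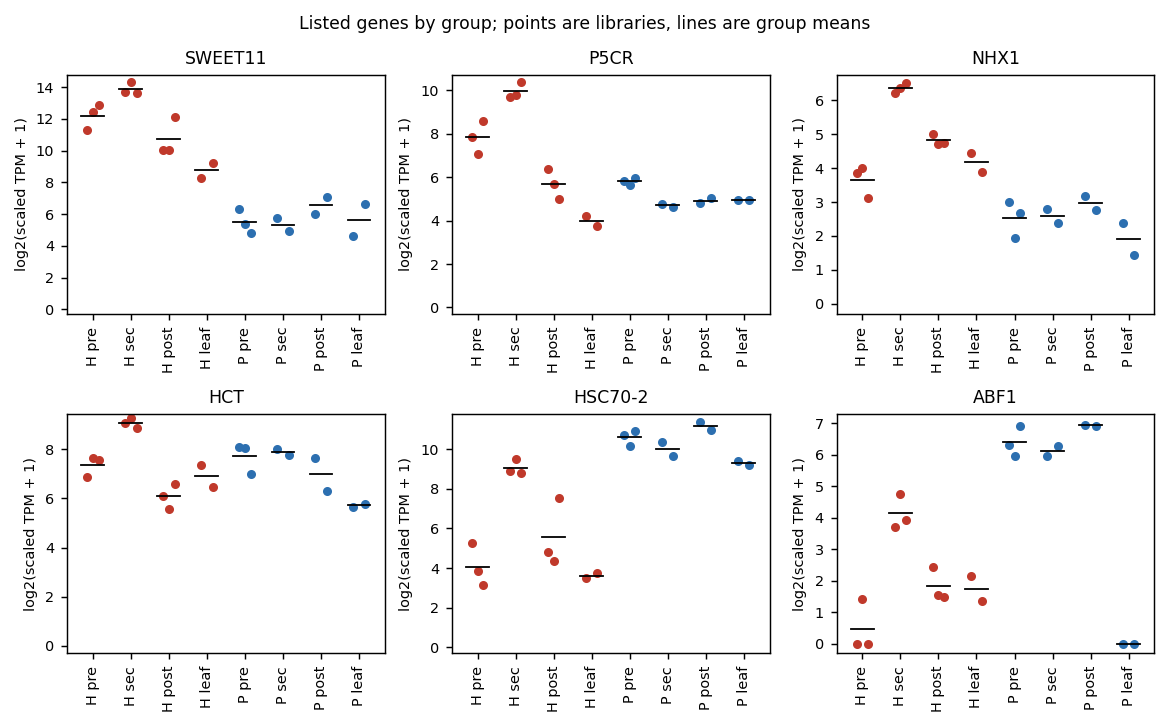
Level of SWEET11, P5CR, NHX1, HCT, HSC70-2 and ABF1 by group as log2(scaled TPM + 1); points are libraries (2 or 3 per group), lines are group means, red is J. herrerae (H) and blue is J. procumbens (P). The H secretory points lie above the other H points in every panel; the P nectary points lie below all H nectary points for SWEET11 and above them for HSC70-2 and ABF1.

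HSC70-2 and ABF1 showed the opposite order of the species. HSC70-2, a cytosolic Hsp70 chaperone, stood at 37.2, 13.3 and 7.73 before, 476, 729 and 435 during and 26.8, 19.2 and 182 after secretion in J. herrerae, the largest secretory minus pre-secretory difference of the 36 (4.99 on the log2 scale). In J. procumbens it stood at 1135 to 1932 before, 799 and 1288 during and 1988 and 2634 after secretion, so every nectary library there exceeded the highest J. herrerae one. Of its relatives in the list, HSC70-1 stood at 2536 ± 264, 6144 ± 2321 and 2682 ± 331 in J. herrerae and at 4227 ± 714, 3480 ± 649 and 6034 ± 2020 in J. procumbens, and HSC70-3 at 544 ± 132, 921 ± 380 and 521 ± 101 against 1937 ± 524, 1233 ± 325 and 2644 ± 970. Hsp70 copies are close in sequence, so the division among these 3 loci is uncertain.

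Another 8 of the 41 heat shock and folding genes in the table had the J. herrerae peak without meeting the rule, since J. procumbens was also higher during secretion than before it by 0.75 to 3.01. The largest peak among them was that of MBF1C, a coactivator of the heat response, at 170 ± 50.4 during secretion in J. herrerae and 294 ± 13.7 in J. procumbens. HSFA2, a heat shock factor, stood at 21.7 ± 1.46, 227 ± 129 and 37.3 ± 4.51 in J. herrerae and at 46.2 ± 23.1, 116 ± 0.880 and 43.2 ± 6.15 in J. procumbens.

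ABF1, a bZIP factor that binds abscisic acid response elements, stood at 0, 1.66 and 0 before, 12.1, 26.2 and 14.4 during and 4.47, 1.92 and 1.84 after secretion in J. herrerae. In J. procumbens it lay at 61.4 to 120 before, 61.9 and 77.0 during and 121 and 123 after secretion, above the J. herrerae peak in each of the 7 libraries. ABF3, a related factor, stood at 83.1 ± 30.7 and 85.5 ± 6.15 during secretion in J. herrerae and J. procumbens. Of the 29 abscisic acid genes in the table, PP2CA and HAI2, phosphatases that hold the signal down, ABF4 and AFP3 also had the J. herrerae peak. Each was 0.97 to 1.5 higher during than before secretion in J. procumbens as well, and HAI2 went from 16.3 ± 6.78 to 326 ± 119 in J. herrerae and from 33.9 ± 7.83 to 67.8 ± 18.7 in J. procumbens.

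**Figure D3:**
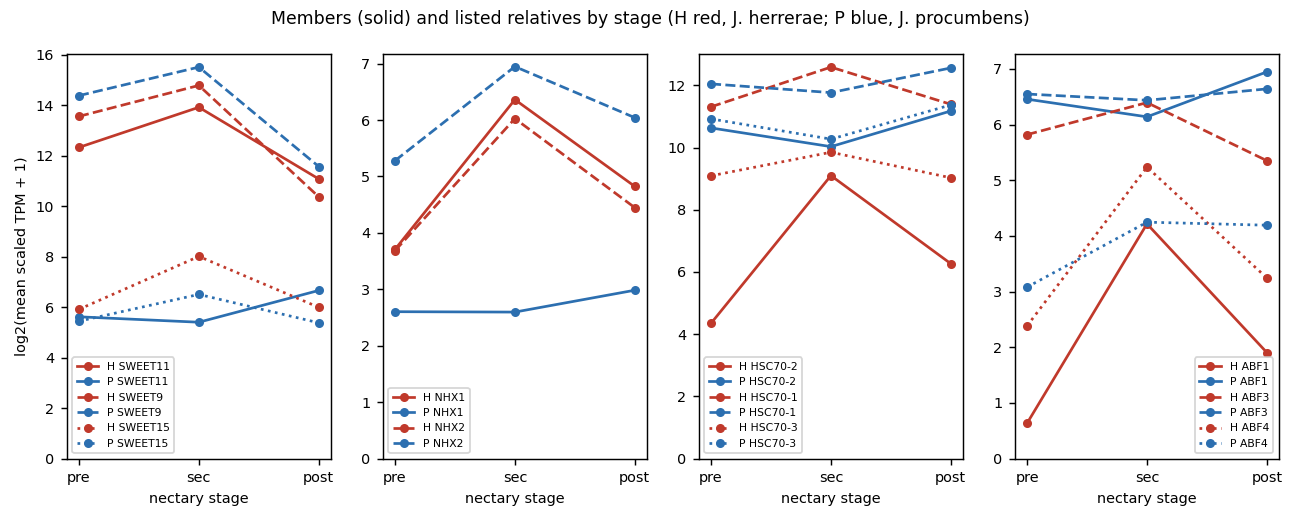
Group means as log2(mean scaled TPM + 1) across the pre-secretory, secretory and post-secretory nectary for SWEET11, NHX1, HSC70-2 and ABF1 (solid) and their listed relatives (dashed and dotted), with J. herrerae (H) in red and J. procumbens (P) in blue. The solid red line peaks at the secretory stage in each panel and the solid blue line does not. SWEET9, SWEET15 and NHX2 are highest at the secretory stage in both species.

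Among the 30 members without a name in the lists, AT4G38250 and AT1G04640 had the largest peaks. AT4G38250 stood at 10.1, 4.98 and 5.15 before, 116, 172 and 140 during and 6.71, 3.84 and 1.84 after secretion in J. herrerae, and between 2.95 and 11.5 in J. procumbens nectaries. AT1G04640 stood at 18.0 to 20.3 before, 97.1, 305 and 435 during and 18.4 to 22.4 after secretion, and between 49.6 and 72.8 in J. procumbens nectaries. Secretory library A was the lowest of the 3 for both. ATCG01110 was the second most abundant member, at 1912, 1871 and 2580 during secretion against 240 to 593 before and after it, and at 9.39 to 28.8 in J. procumbens nectaries.

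J. procumbens did not hold the 36 loci at a common level. Stage means of log2 values were compared for this. In 9 loci (25.0%) all of its stage means were at or above the J. herrerae secretory mean, in 11 loci (30.6%) all were at or below the higher of the J. herrerae pre- and post-secretory means, and 16 (44.4%) lay between or were mixed. The first group held HSC70-2 and ABF1 and had a median J. herrerae secretory mean of 14.4 and a median J. procumbens nectary mean of 91.9. The second held SWEET11, P5CR and NHX1, with medians of 268 and 19.8, and the third HCT, with medians of 91.9 and 34.8. Of the 132 other loci with the J. herrerae peak, 3.79%, 11.4% and 84.8% fell in these groups. The rule asks those loci for a higher secretory level in J. procumbens, so the shares are set side by side only, and their difference was not tested.

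At the secretory stage 27 members had the higher mean in J. herrerae and 9 in J. procumbens. Library by library, 21 members had all 3 J. herrerae secretory libraries above all 7 J. procumbens nectary libraries (13.4% of all tested loci did), 7 had them all below (24.6%) and 8 overlapped. The levels had a part in the choice, so nothing is read from these counts. With the deposited values not rescaled, 7 in place of 11 loci lay at or below the J. herrerae baseline.

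**Figure D4:**
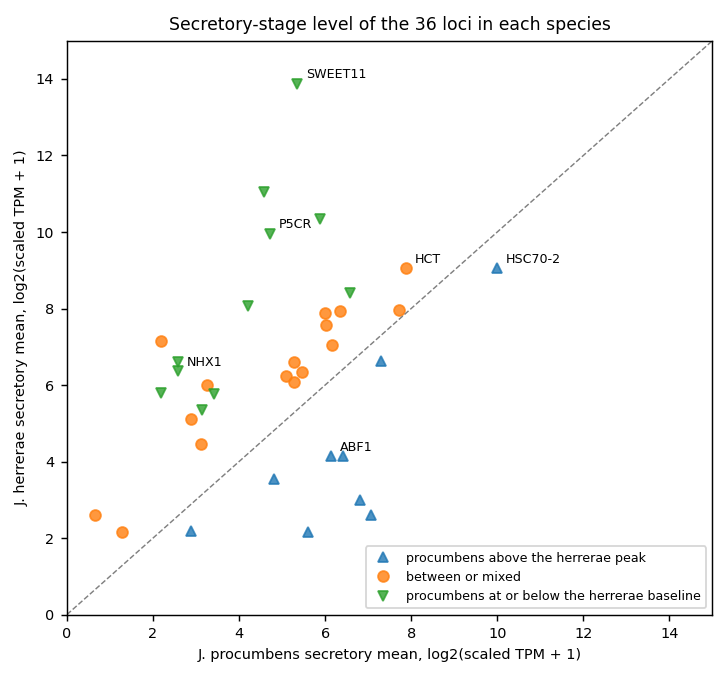
Secretory mean of each of the 36 loci in J. procumbens (x axis) and J. herrerae (y axis), both as log2(scaled TPM + 1), with symbols for the J. procumbens nectary level and a dashed line of equal levels. The 9 loci with the higher mean in J. procumbens lie below the line and SWEET11 lies farthest above it.

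After secretion J. procumbens moved by 1.5 or more on the log2 scale in 6 members. The secretory mean exceeded the post-secretory one by 1.95 in AT5G46050 and by 1.5 or more in 2 others, AT1G23090 and AT5G17380. The reverse held for AT3G28550, AT1G34470 and AT2G23180. AT3G28550 was listed at 1.47 and 1.4 during and at 17.3 and 480 after secretion in J. procumbens, so the post-secretory value rests on library B. AT5G39600 had the largest secretory minus pre-secretory difference downward, from 22.5, 21.4 and 57.4 to 1.47 and 0.

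Leaf libraries had no part in the choice, and the 36 loci were compared there between the species (2 libraries each, limma over 13072 loci with Benjamini-Hochberg adjustment). J. herrerae leaf was higher for 5 members (13.9%) and lower for 16 (44.4%), where 15.5% and 20.7% of all tested loci were higher and lower. The other 15 missed an adjusted p of 0.05. The median log2 difference, J. herrerae minus J. procumbens, was -0.93 over the members and -0.12 over all loci. Of 117 other loci with the J. herrerae peak that passed the same floor, 10.3% were higher and 10.3% lower, with a median of 0.20. The difference between these shares was not tested. The rule picks loci that are low in some J. herrerae tissue and above a floor in J. procumbens, and a locus's levels in different tissues of a species are related, so the leaf values are no independent support for a species difference in nectaries.

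Among the genes higher in J. herrerae leaf was SWEET11, at 309 and 606 scaled TPM against 24.1 and 96.6 (log2 difference 3.13, SE 0.78, adjusted p = 0.00509). It lost the call without J. herrerae leaf B, without J. procumbens leaf B and with all 23 libraries (adjusted p up to 0.105). NHX1 was higher as well, at 20.7 and 13.9 against 4.25 and 1.72 (2.25, SE 0.38, adjusted p = 0.000252). ATCG01110 had the largest difference upward, at 229 and 250 against 18.4 and 13.8 (3.83, SE 0.37, adjusted p = 6.51e-07), and AT1G23090 stood at 31.0 and 47.8 against 4.25 and 5.17 (2.80, SE 0.43, adjusted p = 0.000103, or 0.0572 with all 23 libraries).

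ABF1 was the fifth, at 3.45 and 1.54 (2 and 1 TPM as deposited) against a listing at 0 in both J. procumbens leaves. Its call (adjusted p = 0.0114) was lost without J. herrerae leaf A, without J. procumbens leaf B and with all 23 libraries, where the sign also turned (adjusted p up to 0.801). A pair of nectary genes stood higher in J. herrerae leaf too: SWEET9 at 376 to 654 against 19.0 to 39.6, and CRC at 114 to 196 against 6.90 to 7.08. Their part in the leaf differences was not tested.

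HSC70-2 was the named gene lower in J. herrerae leaf, at 10.3 and 12.3 against 665 and 595 (-5.68, SE 0.78, adjusted p = 3.63e-05). AT3G28550 was listed at 0 in both J. herrerae leaves and stood at 51.0 and 82.8 in J. procumbens (adjusted p = 0.000173), and AT5G38820 at 0 against 32.6 and 44.8 (adjusted p = 3.19e-06). All 3 calls were kept under every alternative of this comparison. AT4G38250 and AT1G04640, with the largest peaks among unnamed members, were lower by less and lost the call under several alternatives: AT1G04640 stood at 17.2 and 17.0 against 51.0 and 46.6 (-1.46, SE 0.44, adjusted p = 0.0173, up to 0.0842) and AT4G38250 at 3.45 and 1.54 against 11.3 and 5.17 (-1.38, SE 0.45, adjusted p = 0.0271, up to 0.257). P5CR (-0.97, SE 0.42, adjusted p = 0.0865) and HCT (1.2, SE 0.46, adjusted p = 0.0551) missed the threshold, but P5CR passed it with the deposited values (adjusted p = 0.0435) and HCT with median ratios (0.0282) and without J. herrerae leaf B (0.0409). With all 23 libraries 2 members were higher and 11 lower, beside 708 and 1043 of 13077 loci. Median ratio rescaling moved the median of all loci from -0.12 to 0.04. It gave 8 higher and 16 lower members, all 16 of them and 5 of the 8 as before, beside 2666 and 2327 of 13072 loci. Of all calls, 42.8% were higher, and 53.4% after that rescaling. Without J. procumbens leaf B the median log2 difference was -0.77 over the members and -0.09 over all loci.

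**Figure D5:**
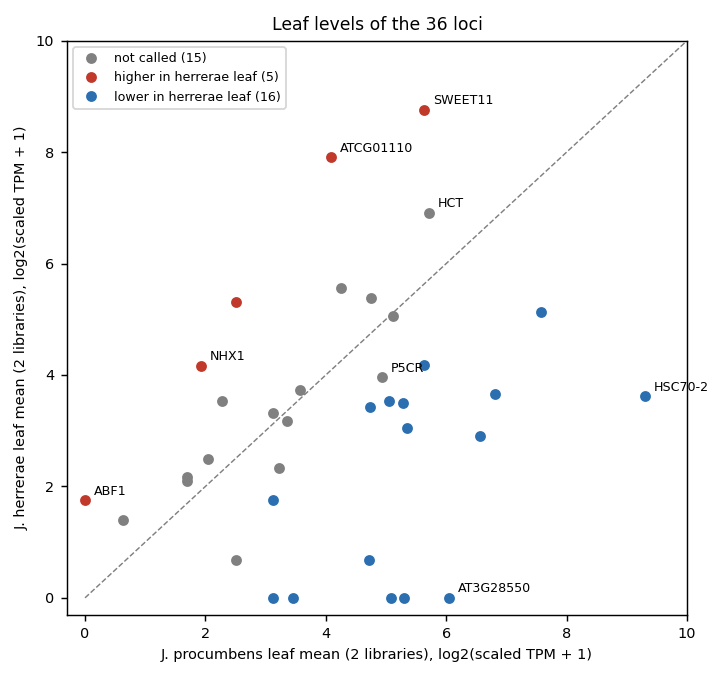
Leaf mean of each of the 36 loci in J. procumbens (x axis) and J. herrerae (y axis), 2 libraries each, as log2(scaled TPM + 1), coloured by the limma call at an adjusted p of 0.05, with a dashed line of equal levels. The 16 loci called lower in J. herrerae leaf lie below the line, several at 0 on the y axis, and the 5 called higher lie above it.

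In the gene lists that hold a member, leaf calls are set beside the 15.5% higher and 20.7% lower of all loci. Of 14 SWEET genes tested, 5 were higher and 2 lower in J. herrerae leaf with a median of 1.11, and of 37 ion transport genes 11 were higher and 1 lower with a median of 0.52. Of 40 heat shock and folding genes 5 were higher and 13 lower (median -0.45), of 29 abscisic acid genes 5 and 3 (0.21), of 9 proline genes 3 and 3 (-0.67) and of 18 phenylpropanoid genes 0 and 2 (-0.02; 2 were higher at an unadjusted p under 0.05 in limma). The members are counted in these lists.

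The second comparison set J. procumbens post-secretory nectary against leaf (2 libraries each). The post-secretory libraries took part in the rule through the floor. With the floor set on the pre-secretory and secretory libraries alone, an alternative chosen after seeing the data, 33 loci met the rule, all of them members, and AT2G23180, AT3G28550 and AT4G38250 did not. No post-secretory value of J. procumbens chose these 33, and 12 of them (36.4%) were higher in nectary and 1 (3.03%) lower, with a median of 0.72. Of all tested loci 42.1% were higher and 12.7% lower, with a median of 0.58. Over the 36 the counts were the same 12 (33.3%) and 1 (2.78%), with a median of 0.65. Another 117 loci with the J. herrerae peak passed the floor of the rule but not its limit in J. procumbens. Of these, 59.8% were higher in nectary and 4.27% lower, with a median of 1.47. Those 117 were higher during secretion in J. procumbens by the rule, so the shares are set side by side only. The difference between them was not tested. The 33 were still chosen on J. procumbens pre-secretory and secretory levels, and levels in different stages of a species are related. Their counts are thus no independent result on nectary against leaf. The members named next belong to the 33.

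ABF1 was the clearest case, at 121 and 123 in nectary and at 0 in both leaves (adjusted p = 2.04e-07). AT1G79900 stood at 17.3 and 30.8 against 1.42 and 0 (3.96, SE 0.51, adjusted p = 2.28e-05) and AT5G46050 at 15.9 and 34.9 against 4.25 and 3.45 (2.35, SE 0.74, adjusted p = 0.0139). HCT was higher by 1.27 (SE 0.46, adjusted p = 0.0301) and NHX1 by 1.05 (SE 0.38, adjusted p = 0.0287). Both lost the call in the limma fit of the compared groups alone (adjusted p = 0.0784 and 0.111). AT5G39600 was the member lower in nectary, at 1.44 and 0 against 8.49 and 6.90 (-2.47, SE 0.66, adjusted p = 0.00519). HSC70-2, at 1988 and 2634 against 665 and 595, missed the threshold (1.86, SE 0.78, adjusted p = 0.0555), though it passed with the deposited values (0.0302) and in the fits of the compared groups alone (0.0136 to 0.0266). It was also missed by SWEET11 (0.93, SE 0.78, adjusted p = 0.327) and by P5CR (-0.02, SE 0.42, adjusted p = 1).

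These nectary against leaf calls depended on which libraries and scaling were used. With all 23 libraries 0 members were called by limma (5 at an unadjusted p under 0.05) and 1 of all loci. Median ratio rescaling moved the median of all loci from 0.58 to 0 and the share of higher calls from 76.8% to 44.9%. It left 5 of the 36 members higher and 3 lower, beside 2228 higher and 2736 lower of all 13072 loci. HCT, NHX1 and AT5G46050 then lost their calls, and ABF1 and AT1G79900 kept theirs. HCT, NHX1, AT5G46050 and AT5G39600 also lost the call without post-secretory B. Without J. procumbens leaf B the median log2 difference was 0.50 over the members and 0.55 over all loci.

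Against the 42.1% higher and 12.7% lower of all loci, 23 of 40 heat shock genes were higher and 0 lower in J. procumbens post-secretory nectary than in leaf, 14 and 2 of 29 abscisic acid genes, 18 and 2 of 37 ion transport genes, 8 and 0 of 18 phenylpropanoid genes, 5 and 1 of 9 proline genes and 5 and 2 of 14 SWEET genes. At an unadjusted p under 0.05 in limma, 0 heat shock and 0 phenylpropanoid genes were lower too.

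At the thresholds of the rule, AT2G35736 lay just inside the J. herrerae rise with 1.51 and AT4G27890 just outside with 1.49. AT3G06200 was just inside the limit on the J. procumbens rise with 0.48, and AT4G15960 just outside it with 0.503. NHX1 was just inside the floor with a J. procumbens nectary mean of 5.59, and AT4G23180 just outside it with 4.33. The floor also left out 5 listed genes with the J. herrerae peak and a J. procumbens nectary mean of 0 to 1.00. LEA7, a protective late embryogenesis abundant protein, stood at 1157 to 2077 during secretion in J. herrerae against 5.51 to 60.4 before and after it, and PIP2;6, a plasma membrane aquaporin, at 72.8 to 336 against 7.34 to 15.66. FLS1, a flavonol synthase, SRO5, a stress response protein, and PRR3, a clock protein, were the others.

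Membership itself held unevenly. Of the 36 loci 7 met the rule under all 4 alternatives of scaling, library choice and pseudocount, 14 met it in each of 16 runs that left out 1 nectary library, and 5 met it throughout: P5CR, AT1G23090, AT1G19490, AT3G07090 and AT2G43840. SWEET11 met it under the 4 alternatives and missed it without J. herrerae pre-secretory A or secretory B. HSC70-2 and ABF1 met it in all 16 runs and missed it with all 23 libraries, HCT missed it with all 23 and without pre-secretory A, and NHX1 missed it with the deposited scale, with median ratios and without secretory C or post-secretory B of J. herrerae.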

How the data were processed

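The deposited score is TPM that the authors rounded to whole numbers, for 13170 Arabidopsis loci. Per the submitters' processing notes, kallisto 0.46.1 did the quantification. Which reference it used, and how transcripts were matched to Arabidopsis loci and summed, is not given in the sources used here. TPM keeps no read depth, so no counting interval can be given per library. Of 24 libraries in the study's plan, 23 are part of the table analysed here and 20 were used. No 2 libraries held identical values. Listed totals ran from 542947 to 779099 TPM.

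AT5G50290, AT5G36210 and AT2G01021 held 10.9 to 48.8% of the listed TPM in J. herrerae nectary libraries and 0.809 to 6.79% elsewhere. They were left out and each library was rescaled to 1000000, which raises other J. herrerae nectary values by construction. In libraries A, B and C of J. herrerae these loci held 31.9, 30.5 and 48.8% during secretion. Before it they held 47.2, 10.9 and 33.8%, and after it 24.6, 19.9 and 13.7%. The rescaling thus raised secretory values by more than post-secretory ones. With the deposited values not rescaled, 19 of the 36 loci met the rule. Values were analysed as log2(scaled TPM + 1), so a fold change of a low locus is understated. Tests were made in limma 3.58.1 (R 4.3.3), which fitted the means of 8 groups with a mean-variance trend. Benjamini-Hochberg adjustment ran over the 13072 loci with at least 1 scaled TPM in at least 2 libraries. Each locus has 1 variance over all groups. Called means an adjusted p under 0.05. Tables came from pandas 2.3.3 and numpy 2.4.6 under Python 3.11.15, and plots from matplotlib 3.10.9. The membership rule and the limma steps were tested on simulated data.

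The members, lists and tests were chosen with earlier results of these data known. Symbols come from 53 gene lists (1557 loci, 1112 in the table); of these lists 6 hold a member and 47 hold none. Named were every listed member, the 2 unlisted members with the largest peaks, up to 2 unlisted members called each way per comparison and the loci nearest each threshold. Genes of the lists were named for comparison after their values were seen. Alternatives were the deposited scale, median ratios, all 23 libraries, a pseudocount of 0.1, other thresholds, no filter, a mean of at least 5, a replicate block, fits of only the compared groups, and each library omitted in turn.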

Additional observations from a re-analysis of the deposited data

Results flagged for a closer look

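Of 15 named loci, 4 had a library far from the other 3 in the labelled J. procumbens pre-secretory group, and in each it was library A, which was left out above. The test compares the gap to the nearest library with the whole range, on the log2 scale, and by chance flags about 1 group in 20. HSC70-2 stood at 24.1 scaled TPM in library A against 1135 to 1932 in the others (gap over range 0.877), P5CR at 4.83 against 48.5 to 61.4 (0.903), AT5G38820 at 0 against 93.4 to 149.8 (0.907) and ATCG01110 at 233 against 16.0 to 20.0 (0.920). In the J. herrerae leaves these loci stood at 10.3 and 12.3, 17.2 and 12.3, 0 and 0, and 229 and 250. The whole profile of library A correlated best with J. herrerae leaf (r = 0.889) and less with its own labelled group (r = 0.449).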

How the results depend on the processing

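The number of loci that met the rule was 36, and 20 with the deposited values, 109 and 19 with a J. herrerae rise of at least 1 and 2, 16 and 66 with a J. procumbens rise under 0 and 1, and 32 to 50 without single libraries. Median ratios (50), all 23 libraries (24), a pseudocount of 0.1 (51) and a floor of 1 (51) or 10 (28) kept it within 1.5 times. At or below the J. herrerae baseline lay 7 members with the deposited values. For leaf, 4722 loci were called, and 1751 with all 23 libraries, where 2 members and 708 of all 13077 loci were higher. Median ratios gave 8 higher members, beside 2666 higher of all 13072 loci. Without single libraries 3402 to 3927 loci, 3 to 5 higher and 11 to 13 lower members were called. The replicate block by letter gave 4688 calls for leaf, where the groups share only B, with 6 members higher and 14 lower (1878 and 2810 of all loci). For J. procumbens post-secretory nectary against leaf 7165 loci were called, and 1 with all 23 libraries (2743 at an unadjusted p under 0.05, limma), with 0 members higher and 0 lower. Median ratios gave 5 higher and 3 lower members there, beside 2228 higher and 2736 lower of all 13072 loci. Single libraries left out gave 5590 to 6261 loci, 8 to 12 higher and 1 lower member. The letters B and C did not pair these samples (r = -0.15 between deviations). The block gave 7269 calls over all groups and 3905 (0 members lower, 1 at an unadjusted p under 0.05) on the compared groups alone, and crossed letters, added after seeing the data, gave 6246 (2 members lower), against 5898 unblocked. Values of named loci with a call in either setting turned sign in 2 cases: ABF1 in leaf with all 23 libraries (-0.67), and AT3G28550 in post-secretory nectary against leaf without post-secretory B (-1.85, and 2.87 without C); the cause was not tested. Another 17 turned sign with no call in either setting. Of the rest 315 kept sign and side of the threshold, 46 lost the call and 10 gained it. Where a group kept 1 library, its spread was taken to equal that of the others. Depth is unknown, so low values limit precision by an amount that cannot be given.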
